A study of Mus musculus with 8 samples.

Results

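The 45 genes described here encode proteins that build and steer the mitotic spindle, attach chromosomes to it at the kinetochore, and carry a cell into and out of mitosis. They were chosen by name, from a list drawn up with earlier results of these data known, and each was found once among the 14954 genes measured. Poly(A) RNA was sequenced from cortical progenitor cells derived from mouse embryonic stem cells of the A2lox.Cre Bcl6 line, which carries Bcl6, a transcriptional repressor, under tetracycline control. In 4 Bcl6-induced libraries the cells had received 1 µg/ml doxycycline for 24 h at day 12 of differentiation, and in 4 control libraries they had received the solvent DMSO in its place. Both groups carried the inducible gene, both had been given 400 ng/ml of the hedgehog pathway inhibitor cyclopamine from day 2 of differentiation, and the stem cells had been propagated on irradiated mouse fibroblasts. No library with doxycycline and without the inducible gene was analysed, so an effect of Bcl6 and one of doxycycline cannot be told apart.

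A dividing cell enters mitosis when cyclin B and Cdk1 become active. Aurora and Polo kinases then organise the spindle poles and correct faulty attachments, kinesins move microtubules and chromosomes, and the spindle checkpoint holds anaphase back until every kinetochore is attached. Destruction of securin and cyclin B by the anaphase-promoting complex starts chromosome separation, and the central spindle places the cleavage furrow. Most of these mRNAs accumulate in G2 and M phase, so in a neural progenitor population their levels follow the share of dividing cells, and postmitotic neurons carry little of them. The transcription of many mitotic genes is controlled through a short promoter element, the cell cycle genes homology region (CHR), which the MuvB protein Lin54 binds, often together with CCAAT boxes bound by the factor NF-Y.

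Promoter windows show how much of this control sequence the genes share. RefSeq windows on build GRCm38.p6, from 250 bases before to 50 bases after the gene start, were matched for 39 of the 45 genes. The 5 windows shown hold the 120 bases before the start, 5′ to 3′ on the gene's own strand. Nusap1 and Cdc25b were lower in induced cells, Mki67 is one of the 4 long transcripts, and Top2a and Kif11 carry both elements. Capitals mark the CHR hexamer, read as TTTGAA or TTCAAA, and the CCAAT box, read as CCAAT or ATTGG.

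Nusap1 (chr2:119618178-119618297, plus strand): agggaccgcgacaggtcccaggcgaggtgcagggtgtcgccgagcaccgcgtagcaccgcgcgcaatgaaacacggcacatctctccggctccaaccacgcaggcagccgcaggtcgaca

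Cdc25b (chr2:131186828-131186947, plus strand): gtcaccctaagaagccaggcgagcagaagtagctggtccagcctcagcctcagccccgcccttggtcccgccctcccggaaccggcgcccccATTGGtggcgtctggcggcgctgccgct

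Mki67 (chr7:135716380-135716499, minus strand): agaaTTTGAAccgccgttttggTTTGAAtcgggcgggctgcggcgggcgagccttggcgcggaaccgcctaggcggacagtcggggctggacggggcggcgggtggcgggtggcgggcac

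Top2a (chr11:99024190-99024309, minus strand): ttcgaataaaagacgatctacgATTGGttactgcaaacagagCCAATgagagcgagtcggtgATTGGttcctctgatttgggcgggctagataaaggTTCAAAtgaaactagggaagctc

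Kif11 (chr19:37376262-37376381, plus strand): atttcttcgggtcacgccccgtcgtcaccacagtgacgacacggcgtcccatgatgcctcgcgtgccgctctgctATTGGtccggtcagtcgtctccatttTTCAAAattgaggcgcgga

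The 120 bases of Nusap1 held neither element, and those of Cdc25b held a CCAAT box alone. Mki67 had a pair of CHR hexamers and Top2a had 3 CCAAT boxes upstream of 1 CHR hexamer. Over the whole windows, searched on both strands, 29 of 39 mitotic genes (74.4%) held a CHR hexamer, against 13.9% of 10820 other measured genes and 20.2% of all 27025 genes with a window. The CCAAT box was in the windows of 29 mitotic genes (74.4%), against 43.1% of other measured genes and 41.1% of all genes. Both elements stood together in 24 mitotic genes (61.5%), against 6.93% of other measured genes, and they shared bases in 1 of 42 windows. A letter match is a description and does not show that a protein binds there.

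The CHR hexamers clustered at the gene start. In 16 of 42 windows (38.1%) one began within the 25 bases after the start, where 0.75% of the windows of other measured genes had one. CCAAT boxes lay mostly upstream and were spread over the 100 bases before the start. From the farthest of these bins to the nearest, 26.2%, 33.3%, 23.8% and 30.95% of the 42 windows had one. Of the windows of other genes 7.35%, 8.9%, 6.91% and 4.41% did. The motif TTCCTNGAA, taken as a Bcl6 recognition sequence and chosen after the data had been seen, was in none of the 39 mitotic gene windows, against 1.44% of other measured genes. That count says only that these letters are not in these windows. In induced cells the 29 genes with a CHR hexamer had a median log2 fold change of -0.11 and 1 called lower, Kif4, and the 10 without one had a median of -0.16 and 2 called lower, Nusap1 and Cdc25b, beside 2.26% of all genes called lower. Without control 1 these medians were -0.14 and -0.15.

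**Figure D1:**
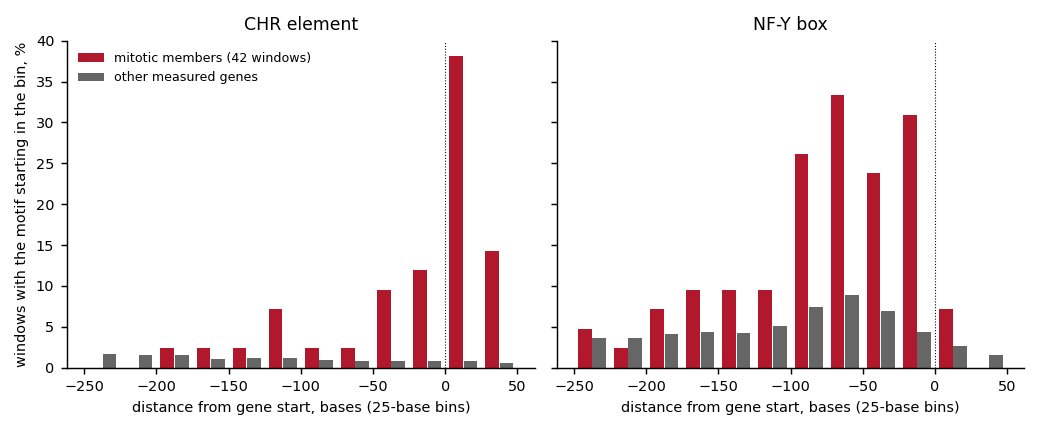
Percentage of promoter windows in which a CHR element (left) or an NF-Y-bound box (right) begins, in bins of 25 bases by distance from the gene start. Red bars are the 42 windows of the mitotic genes and grey bars those of other measured genes. The mitotic genes peak at 38.1% just after the start for the CHR. For the NF-Y box they read 23.8% to 33.3% in each bin of the 100 bases before it.

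The libraries held between 10.33 and 15.02 M reads in induced cells and between 9.42 and 9.74 M reads in controls, so every induced library was deeper than every control. Values per library are given in CPM, a share of the library's reads scaled to a total of 1000000, in the order of libraries 1 to 4. Bcl6 was at 392.9, 421.8, 426.8 and 324.6 CPM with induction, against 6.61, 6.01, 7.12 and 6.21 CPM in the controls, so the groups lay far apart. Each mitotic gene had at least 383 recovered reads in every library. Control 1 stood apart from the other controls: its values fell below theirs with increasing transcript length (Spearman rho -0.62 over 14924 genes of the same library, which share its depth). Results are therefore given with and without it. Both groups number their differentiations 1 to 4, and whether a shared number marks a shared differentiation is not stated. Whether the numbered differentiations were independent cultures is not stated beyond their numbers, and each p-value covers library-to-library spread, which may be technical. Markers of the labelled cell type were present in both groups but unevenly. Sox2, listed here as a radial glia gene, averaged 255.3 ± 15.5 CPM in induced and 257.1 ± 22.3 CPM in control cells (SD, n = 4 each, as for every mean here). Pax6, of the same list, was far less abundant, at 15.81 ± 5.68 CPM in induced and 20.75 ± 2.47 CPM in control cells. Hes5, another radial glia gene, was at 0.200, 0.301, 6.06 and 6.12 CPM with induction, against 23.05, 17.63, 13.80 and 14.88 CPM in the controls. The pluripotency gene Pou5f1 ranged from 388.0 to 483.2 CPM in induced and from 456.2 to 613.5 CPM in control cells.

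Bcl6 induction was accompanied by a small downward shift of the mitotic genes, with few single genes past the threshold. Nusap1, Cdc25b, Kif4 and Aurkb were lower in induced cells, and none of the 45 was called higher. In limma's test on log2(scaled reads + 1), with Benjamini-Hochberg adjustment over all 14954 genes and a threshold of 0.05, these were 4 of 45 genes, or 8.89%, beside 338 genes (2.26%) called lower among all genes. A further 681 genes (4.55%) were called higher. At an unadjusted limma p under 0.05, 18 of the 45 mitotic genes were lower and 0 higher, beside 1330 and 2217 of all 14954 genes. The fitted log2 fold change was below zero for 40 of the 45 mitotic genes, against 44.6% of all genes. Its median was -0.15 over the mitotic genes and 0.031 over all genes. In 16 mitotic genes (35.6%) every induced library lay below every control, which held for 6.32% of all genes. Set against controls 2 to 4 alone, this number was 23 (51.1%), beside 9.13% of all genes.

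Leaving out control 1 raised the number called lower to 9, beside 3.68% of all genes called lower in the same fit, and 0 were called higher, beside 7.66% of all genes. The genes added were Kif11, Prc1, Pttg1, Spc25 and Top2a, and the median shift stayed at -0.15. Calls depended on single libraries, here and over all genes. Without control 2, induced 1 or induced 2, the only mitotic gene still called was Nusap1. Of all genes 93, 97 and 107 were then called lower, against 338 over 8 libraries. Summed over the 45 genes, induced libraries 1 to 4 held 8037, 7891, 8521 and 8509 CPM, against 8769, 9070, 9246 and 9340 CPM in the controls. The groups did not overlap in this sum. In a bulk library, fewer dividing cells and less of each mRNA per dividing cell cannot be told apart.

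**Figure D2:**
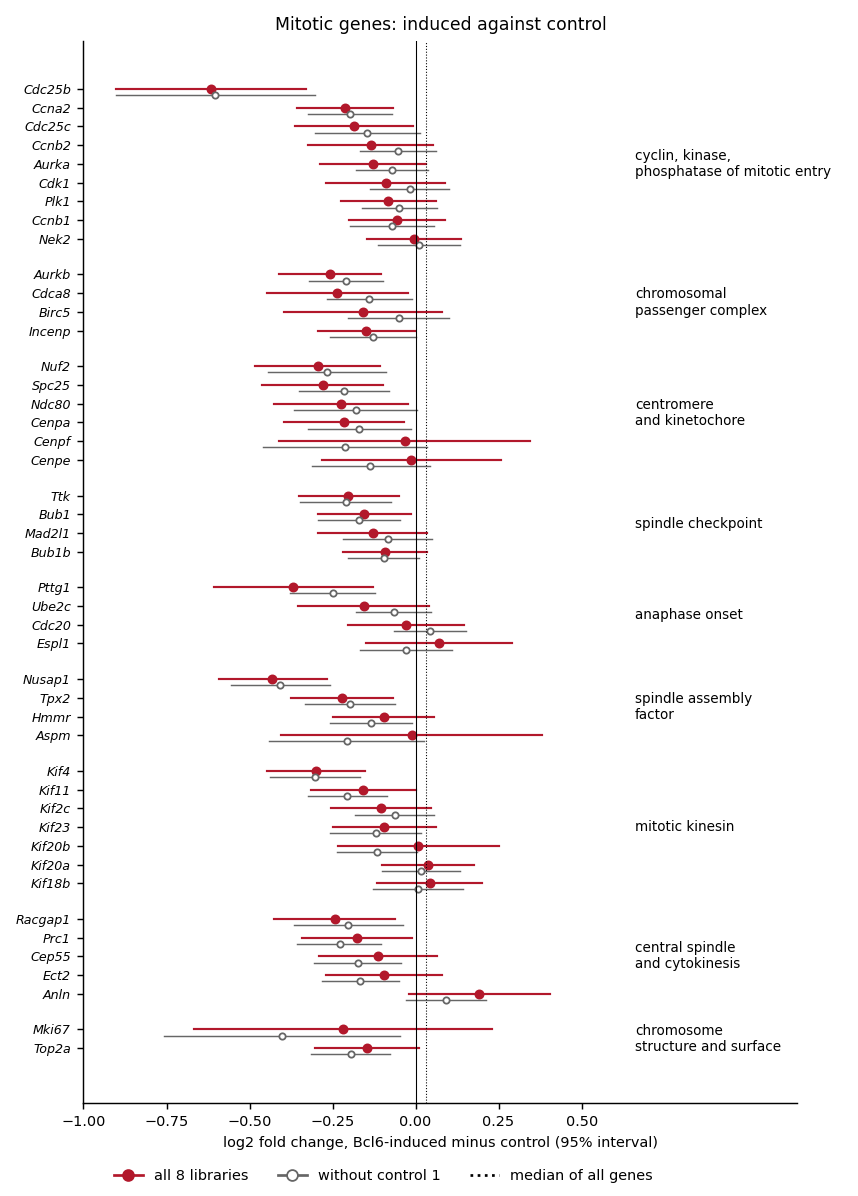
Log2 fold change of each of the 45 mitotic genes, Bcl6-induced minus control, with its 95% interval, grouped by role. Filled red points use all 8 libraries, open grey points leave out control 1, and the dotted line is the median of all genes at 0.031; 40 of the 45 filled points lie below zero.

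The cyclins, kinases and phosphatases of mitotic entry held the gene with the largest shift. Cdc25b is the phosphatase that removes inhibitory phosphates from Cdk1 at the G2 to M transition. It stood at 49.86, 46.34, 63.88 and 72.78 CPM in the induced libraries, against 90.33, 89.71, 82.12 and 89.45 CPM in the controls. The groups did not overlap, and induced libraries 1 and 2 lay well below induced libraries 3 and 4. Its log2 fold change was -0.62 ± 0.13 (SE), with a limma adjusted p of 0.0204, so that it fell by 34.8%. The call was lost when induced 1 was left out (adjusted p = 0.0763), and also without induced 2 or control 2. Cdc25b lies at chr2:131186949-131198497 on the plus strand (mm10).

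All 9 entry genes had fitted values below zero, with a median of -0.13, and the other 8 did not pass the test. Ccna2, cyclin A2, averaged 225.0 ± 5.05 CPM in induced and 261.0 ± 15.7 CPM in control cells, and the groups did not overlap (log2 fold change -0.21, limma adjusted p = 0.0765). Cdk1 itself averaged 211.2 ± 1.68 CPM in induced and 226.0 ± 25.9 CPM in control cells, and Ccnb1, cyclin B1, 312.0 ± 6.26 CPM in induced and 324.6 ± 20.1 CPM in control cells. The range of the controls covered every induced library for both. Plk1 and Aurka, the Polo-like kinase and the spindle-pole Aurora kinase, had log2 fold changes of -0.082 and -0.13, and of -0.049 and -0.072 without control 1. Nek2, a centrosomal kinase, was the nearest to no difference in the group at -0.005, and at 0.011 without control 1. Without it Cdk1 was at -0.018 and Ccnb2, cyclin B2, at -0.053, against -0.090 and -0.14 with all libraries. Cdc25c, a second phosphatase of Cdk1 and the least abundant of the 45 genes, averaged 37.17 ± 2.07 CPM in induced and 42.31 ± 2.65 CPM in control cells without overlap (adjusted p = 0.193).

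The chromosomal passenger complex corrects wrong attachments at the inner centromere and later moves to the central spindle. Aurkb, its kinase, stood at 100.5, 105.8, 107.0 and 104.2 CPM in the induced libraries, against 137.7, 121.1, 122.6 and 118.6 CPM in the controls. Every induced library lay below every control, with control 1 the highest of all. The log2 fold change was -0.26 ± 0.069 (SE), so that it fell by 16.3%, and the adjusted p of 0.0498 in limma's test lay at the threshold. Without control 1 the change was -0.21 (adjusted p = 0.0267), but the call was lost in each of the other 7 leave-outs, with an adjusted p as high as 0.173 without induced 1. With same-numbered libraries taken as blocks it was lost too (limma adjusted p = 0.099). Aurkb lies at chr11:69045647-69051664 on the plus strand.

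The scaffold and targeting subunits of the same complex did not pass the test. Cdca8, borealin, averaged 130.5 ± 7.45 CPM in induced and 154.6 ± 22.2 CPM in control cells, and Incenp 188.1 ± 10.3 CPM in induced and 208.4 ± 8.88 CPM in control cells. Birc5, survivin, averaged 97.51 ± 5.9 CPM in induced and 109.7 ± 18.4 CPM in control cells. The value of Birc5 was -0.16 with all libraries and -0.051 without control 1. Control 1 was the highest library of the controls for each of the 4 subunits, and without it the median shift of the complex was -0.13 in place of -0.20.

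Centromere and kinetochore genes had a median of -0.22 over 6 genes, and of -0.20 without control 1. None was called over 8 libraries. At an unadjusted limma p under 0.05, 4 were lower, and 18 of all 45 mitotic genes were, beside 8.89% of all genes. Ndc80, Nuf2 and Spc25 are subunits of the Ndc80 complex, which grips the microtubule end. Nuf2 stood at 63.58, 66.48, 75.86 and 72.03 CPM in the induced libraries, against 90.33, 91.06, 76.30 and 83.59 CPM in the controls. Induced 3 and control 3 almost met, and the groups did not overlap (log2 fold change -0.30 ± 0.086, adjusted p = 0.0633). Spc25 stood at 85.93, 80.76, 84.28 and 81.10 CPM in induced libraries, against 115.4, 103.1, 90.65 and 95.77 CPM in controls. It too did not overlap, missed the threshold over all 8 libraries (adjusted p = 0.0676) and passed it without control 1, at a log2 fold change of -0.22 and an adjusted p of 0.0458. Ndc80 itself averaged 68.99 ± 4.0 CPM in induced and 80.87 ± 8.89 CPM in control cells, with control 3 inside the induced range (adjusted p = 0.166). Cenpa, the centromeric histone H3 variant, averaged 140.0 ± 6.64 CPM in induced and 163.1 ± 16.4 CPM in control cells (adjusted p = 0.138).

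In the spindle checkpoint the shifts were small and even, and none passed the test (2 of 4 lower at an unadjusted limma p under 0.05, beside 8.89% of all genes). Ttk, the Mps1 kinase that starts checkpoint signalling, stood at 89.04, 82.91, 95.0 and 93.38 CPM in induced libraries, against 101.7, 106.3, 105.8 and 100.3 CPM in controls. Its groups did not overlap, at a log2 fold change of -0.20 ± 0.068 and a limma adjusted p of 0.104. Bub1 and Bub1b, the kinase and pseudokinase that recruit checkpoint proteins to kinetochores, also showed no overlap, with log2 fold changes of -0.15 and -0.093. Mad2l1, the inhibitor of Cdc20, averaged 120.7 ± 3.23 CPM in induced and 132.4 ± 11.4 CPM in control cells, and its groups overlapped. Summed over these 4 genes, the induced libraries held 693.3 to 718.0 CPM and the controls 761.9 to 781.9 CPM.

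Of the genes that start anaphase, securin differed most and the rest little. Pttg1, securin, stood at 103.2, 105.6, 104.3 and 97.84 CPM in the induced libraries, against 169.3, 129.3, 121.8 and 115.7 CPM in the controls. Control 1 was far above the other controls, and every induced library lay below all of them. The log2 fold change was -0.37 ± 0.11 (adjusted p = 0.0680) over 8 libraries and -0.25 (adjusted p = 0.0231) without control 1, so the call came with the smaller shift. Ube2c, the ubiquitin-conjugating enzyme of the anaphase-promoting complex, averaged 149.0 ± 2.87 CPM in induced and 167.2 ± 22.7 CPM in control cells. Cdc20, its activator, averaged 228.8 ± 7.73 CPM in induced and 234.4 ± 24.8 CPM in control cells. Ube2c had a log2 fold change of -0.16 with all libraries and -0.066 without control 1, and Cdc20 one of -0.030 with all and 0.043 without control 1, so its sign turned. Espl1, separase, turned the other way, with 0.070 over all libraries and -0.029 without control 1.

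Among the spindle assembly factors, Nusap1 gave the steadiest call of the 45 genes. It encodes a microtubule-binding protein that bundles and stabilises spindle fibres near chromosomes, and it lies at chr2:119618298-119651244 on the plus strand. Nusap1 stood at 190.7, 195.0, 204.0 and 209.5 CPM in the induced libraries, against 282.5, 294.3, 250.1 and 252.4 CPM in the controls. The highest induced library was well below the lowest control. The log2 fold change was -0.43 ± 0.074 (SE), with an adjusted p of 0.00868, so that it fell by 25.8%. It was called in all 8 leave-outs and all 18 alternatives run. Its exons share 172 bases with Oip5 on the opposite strand, and whether counting used strand is not given in the sources used here. Oip5 is itself far less abundant, at 32.3 ± 1.07 CPM in induced and 42.4 ± 5.68 CPM in control cells.

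Tpx2, the activator of Aurora A on spindle microtubules, averaged 264.8 ± 14.3 CPM in induced and 308.8 ± 17.2 CPM in control cells without overlap (log2 fold change -0.22, limma adjusted p = 0.0826). Hmmr, a spindle-pole adaptor, averaged 208.7 ± 5.81 CPM in induced and 223.5 ± 16.2 CPM in control cells with control 1 inside the induced range. Aspm, the fourth gene of the group, is given with the long transcripts.

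The kinesins divided into Kif4, called lower, and 6 that were not. Kif4 binds chromosome arms and works with Prc1 at the central spindle, and lies at chrX:100625737-100727214 on the plus strand. It stood at 90.14, 88.92, 97.46 and 98.59 CPM in induced libraries, against 114.2, 110.6, 121.6 and 115.0 CPM in controls. The groups did not overlap and each was narrow, with a log2 fold change of -0.30 ± 0.067 (SE) and a limma adjusted p of 0.0261, so that Kif4 fell by 18.7%. The call was kept without control 1 or induced 4 and lost in the other 6 leave-outs, with an adjusted p as high as 0.107 without induced 1. With same-numbered libraries taken as blocks the limma adjusted p lay at the threshold, at 0.05, and the call was lost. Kif4 exons share 832 bases with Pdzd11 on the opposite strand and a pseudogene, Kif4-ps, is annotated, so its count is uncertain to that extent. Pseudogenes are also annotated for Ccnb1 and Ccnb2. Pdzd11 averaged 35.93 CPM in induced and 39.5 CPM in control cells.

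Kif11, the motor that pushes spindle poles apart, stood at 249.2, 249.6, 270.8 and 264.0 CPM in induced libraries, against 259.8, 311.4, 293.2 and 289.6 CPM in controls. Only control 1 lay within the induced range. Its log2 fold change was -0.16 (adjusted p = 0.214) with all libraries and -0.21 ± 0.054 (adjusted p = 0.0355) without control 1. Kif2c, a microtubule depolymeriser, and Kif23, the motor of centralspindlin, had values of -0.11 and -0.095, and of -0.063 and -0.12 without control 1. Kif20a, Kif20b and Kif18b were above zero, at 0.036, 0.008 and 0.042, each within the replicate spread. Without control 1 they were 0.017, -0.12 and 0.008, so the sign of Kif20b turned, and its induced libraries all lay below controls 2 to 4. Kif20a shares 1271 exon bases with Cdc23 on the opposite strand, which averaged 140.9 CPM in induced and 132.7 CPM in control cells.

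At the central spindle and cleavage furrow the 5 genes went in both directions, with none called and 2 lower at an unadjusted limma p under 0.05, beside 8.89% of all genes. Racgap1, the partner of Kif23 in centralspindlin, stood at 193.8, 202.2, 230.8 and 235.0 CPM in induced libraries, against 277.6, 256.3, 237.1 and 248.0 CPM in controls. Induced 4 came within a few CPM of control 3 without crossing it (log2 fold change -0.24 ± 0.083, adjusted p = 0.105). Prc1, which cross-links antiparallel microtubules, stood at 124.6, 126.2, 136.6 and 136.9 CPM in induced libraries, against 132.5, 154.0, 148.3 and 158.6 CPM in controls. Control 1 alone lay in the induced range, and the adjusted p was 0.186 with it and 0.0297 without it, at log2 fold changes of -0.18 and -0.23. Prc1 shares 911 exon bases with Rccd1 on the opposite strand. Ect2, the exchange factor for RhoA, and Cep55, an abscission factor, had values of -0.096 and -0.11 with all libraries and of -0.17 and -0.17 without control 1, when the induced libraries of both lay below every control. Anln, the furrow scaffold anillin, had the highest value of the 45 genes, with 191.9 ± 8.32 CPM in induced and 169.1 ± 22.5 CPM in control cells (log2 fold change 0.19, adjusted p = 0.253). Without control 1 it was 0.092.

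Top2a, the topoisomerase that untangles sister chromatids, was the most abundant of the 45 genes, also per length, at 208.4 CPM per kb over all libraries. It stood at 1022, 993.2, 1048 and 1065 CPM in induced libraries, against 1034, 1163, 1177 and 1204 CPM in controls. Control 1 was the only control within the induced range. The log2 fold change was -0.15 ± 0.071 (adjusted p = 0.236) over 8 libraries and -0.20 ± 0.054 (adjusted p = 0.0428) without control 1. Per kb, Cdc20, Ccnb1 and Ccnb2 followed at 129.2, 127.9 and 110.8 CPM per kb, and Cdc25c, Aspm and Mad2l1 were lowest at 15.1, 16.4 and 16.7 CPM per kb. These lengths are of the longest annotated transcript, 7.56 kb for Mad2l1, which may not be the main one in these cells.

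**Figure D3:**
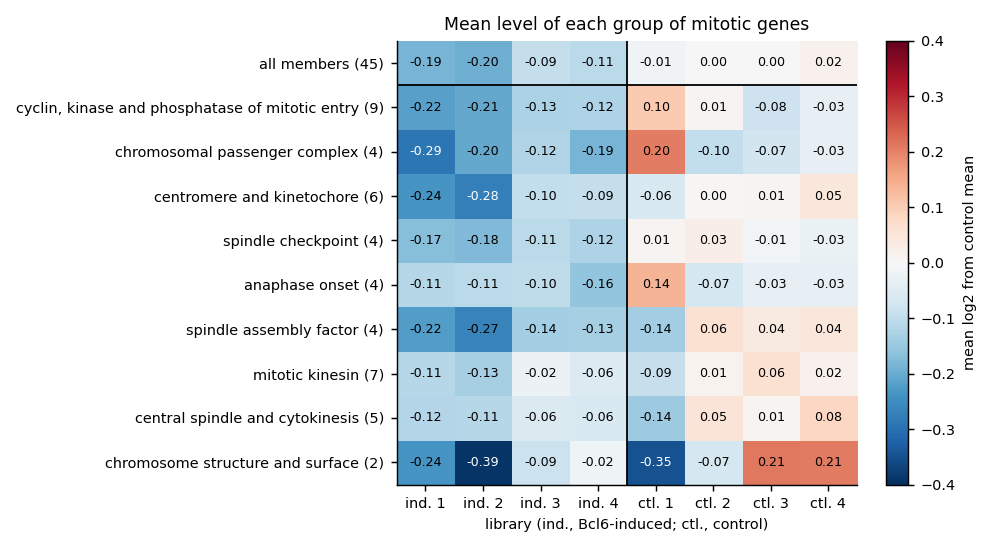
Mean log2 deviation from the control mean in each library (columns, induced libraries left of controls) for all 45 mitotic genes and for each role (rows, number of genes in brackets). The colour scale and the printed values are log2 differences. For all 45 genes the induced libraries read -0.19, -0.20, -0.09 and -0.11.

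The 4 long transcripts were among the genes that control 1 moved most. Mki67 codes for the proliferation antigen that coats mitotic chromosomes, Aspm for a spindle-pole protein needed for normal brain size, Cenpe for a kinetochore motor and Cenpf for a large kinetochore protein. Their longest annotated transcripts are 10.06, 9.87, 7.91 and 11.13 kb. Control 1 lay below the mean of controls 2 to 4 by log2 differences of -0.73 for Mki67, -0.79 for Aspm, -0.49 for Cenpe and -0.72 for Cenpf.

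Mki67 stood at 408.6, 338.9, 491.1 and 533.1 CPM in the induced libraries, against 346.7, 451.9, 661.5 and 641.8 CPM in the controls. Control 1 was below 3 of the induced libraries, and control 2 below induced 3 and 4. The log2 fold change was -0.22 ± 0.20 (SE, adjusted p = 0.550) with all 8 libraries and -0.40 ± 0.16 (adjusted p = 0.134) without control 1, so neither fit called it. It also moved to -0.092 without control 3, -0.106 without control 4 and -0.097 without induced 2. With each library's trend on transcript length removed it was -0.37 and passed the threshold (adjusted p = 0.0359).

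Aspm stood at 155.3, 135.7, 169.0 and 176.9 CPM in induced libraries, against 106.0, 156.3, 204.5 and 192.0 CPM in controls. Control 1 was the lowest of all 8 libraries. The log2 fold change was -0.011 ± 0.18 (adjusted p = 0.978), and without control 1 it was -0.21 ± 0.11 (adjusted p = 0.225).

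Cenpe stood at 170.9, 168.4, 189.6 and 205.3 CPM in induced libraries, against 142.9, 183.0, 212.3 and 209.2 CPM in controls. Again control 1 was the lowest of the 8 and the others overlapped. Its log2 fold change was -0.013 ± 0.12 (adjusted p = 0.964), against -0.14 ± 0.080 (adjusted p = 0.298) without control 1.

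Cenpf stood at 297.9, 263.0, 341.5 and 355.7 CPM in induced libraries, against 219.4, 310.2, 393.8 and 388.3 CPM in controls. The order was the same as for Aspm, with controls 3 and 4 highest and control 1 lowest. Its log2 fold change was -0.032 ± 0.17 (adjusted p = 0.936) with all libraries and -0.21 ± 0.11 (adjusted p = 0.240) without control 1. For Aspm, Cenpe and Cenpf neither fit passed the threshold, and leaving out control 3 or control 4 gave values above zero. With all libraries the 95% intervals ran from -0.40 to 0.38 for Aspm, -0.28 to 0.26 for Cenpe and -0.41 to 0.35 for Cenpf, which is wider than the shift of most shorter mitotic genes.

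**Figure D4:**
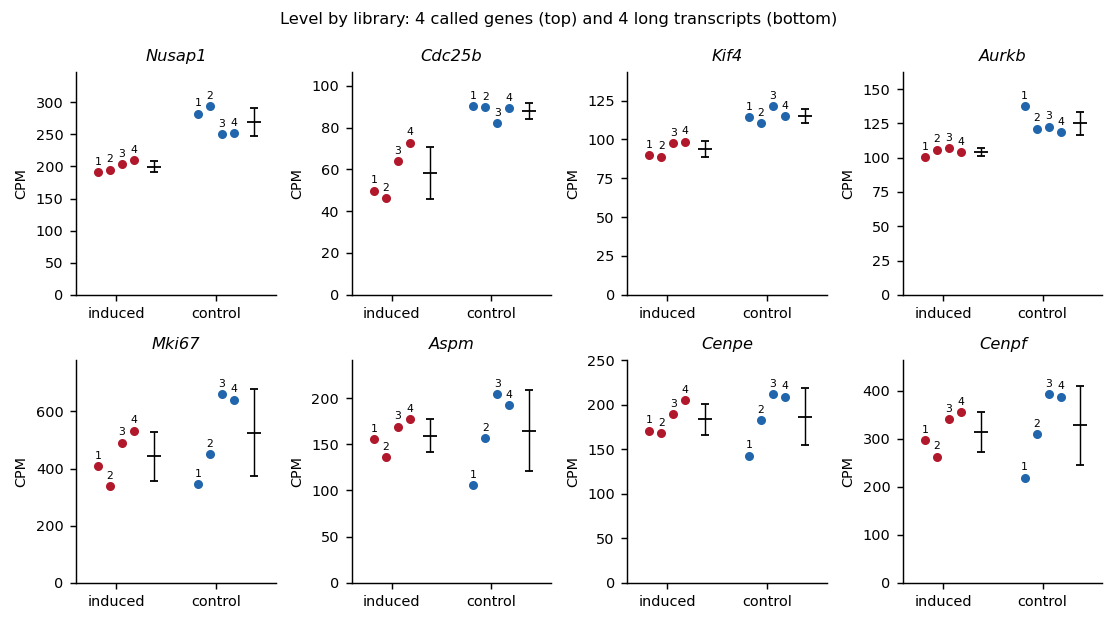
Level in CPM of the 4 called genes (top row) and the 4 long transcripts (bottom row) in each library, induced left of control, with the library number over each point and the mean ± SD beside each group. In the top row the groups do not overlap; in the bottom row control 1 is the lowest control and lies within or below the induced libraries.

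Over the 45 genes transcript length and the deviation of control 1 from the control mean went in opposite directions (Spearman rho -0.63, a description over genes of 1 library). Over the same genes the deviations of induced 2 and induced 4 had rho of -0.54 and 0.44, and those of controls 3 and 4 had 0.44 and 0.59, each from its own group's mean. The control mean includes control 1, so a fall of control 1 with length raises the other controls' values. These rho are therefore not separate trends. In the 15 genes with the shortest transcripts, of 1.53 to 3.09 kb, control 1 had a median of 0.17 (log2) above the other controls, and in the 15 longest, of 4.09 to 11.13 kb, one of -0.28. The induced minus control median moved with it: -0.16 with and -0.15 without control 1 for the 15 shortest, and -0.096 with and -0.20 without it for the 15 longest. The middle 15 genes had -0.15 with and -0.13 without it. Without control 1, each of the 3 length classes therefore had a median between -0.20 and -0.13. Removing each library's length trend instead gave 16 mitotic genes called lower, beside 867 (5.8%) of all genes, and 0 called higher, beside 5.99% of all genes. The median was then -0.20 for the mitotic genes, against -0.010 for all genes. Weighting the libraries by their spread (limma array weights) called 15 mitotic genes, all lower, beside 16.8% of all genes called and 5.78% called lower.

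**Figure D5:**
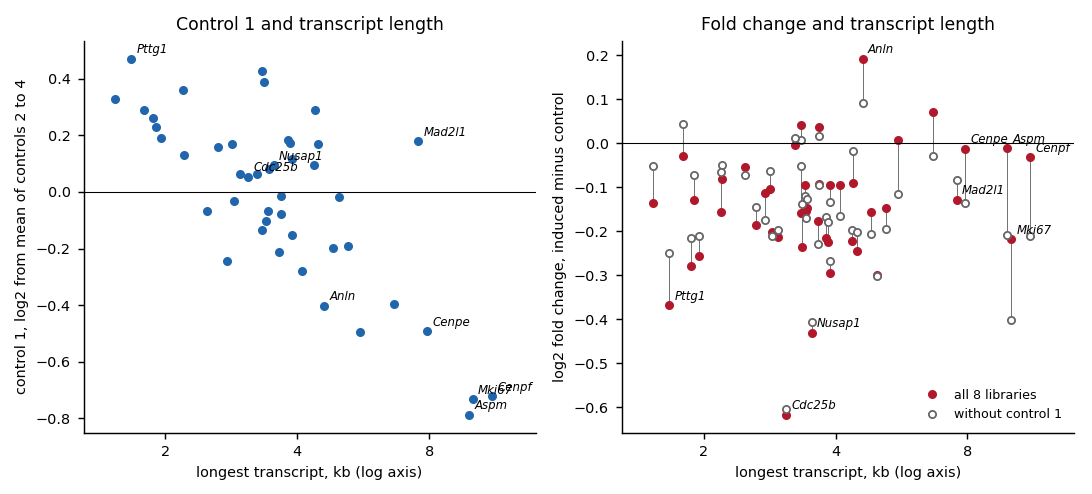
Left, log2 difference of control 1 from the mean of controls 2 to 4 against the length of the longest transcript (kb, log axis) for each mitotic gene. Right, log2 fold change, induced minus control, against the same length with all 8 libraries and without control 1. Control 1 falls from a median of 0.17 in the 15 shortest to -0.28 in the 15 longest.

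Outside the 45 genes, 119 related mitotic genes in 9 lists were measured. Over all 8 libraries 5 fell and 1 rose (5.04% called, beside 6.81% of all genes), with a median log2 fold change of -0.070. Without control 1, 16 were called lower and 5 higher (17.6%, beside 11.3% of all genes), with a median of -0.10. Cenpq, a centromere protein, averaged 25.2 ± 1.42 CPM in induced and 32.1 ± 2.36 CPM in control cells (log2 fold change -0.35, limma adjusted p = 0.0419). Oip5, which takes part in loading the centromeric histone, had a log2 fold change of -0.38 (adjusted p = 0.0432). Its exons share 172 bases with the more abundant Nusap1 on the opposite strand, so its count is uncertain to that extent. Kif22, a chromosome-arm kinesin, had one of -0.35 (adjusted p = 0.0496). Cenpq, Oip5 and Kif22 were each called in 2 of the 8 leave-outs. Their 2 lists, with 28 kinetochore and centromere genes and 14 further kinesins and spindle proteins, had medians of -0.10 and -0.17.

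Condensins, which compact mitotic chromosomes, had fitted values below zero for 8 of 8 genes, beside 44.6% of all genes. Of the 8, 1 was called lower, beside 2.26% of all genes. Ncapd2, a condensin I subunit, stood at 385.4, 386.7, 425.1 and 422.5 CPM in induced libraries, against 474.9, 504.1, 510.6 and 488.7 CPM in controls. The groups were far apart for their spread (log2 fold change -0.29, adjusted p = 0.0257), though the call was lost without induced 1 (adjusted p = 0.108). Without control 1, 5 of the 8 condensin genes were called lower, beside 3.68% of all genes, with a list median of -0.21. No gene was called over 8 libraries among 15 of the anaphase-promoting complex, 15 of gamma-tubulin and augmin, 11 of cohesin, 9 of centrioles and 6 further checkpoint genes, whose medians lay between -0.057 and 0. At an unadjusted limma p under 0.05, beside 1330 genes lower and 2217 higher among all 14954, the first of these lists had 0 genes and the gamma-tubulin list had 2 lower. Cohesin had 1 lower and 2 higher, centrioles 1 higher and the checkpoint list 1 lower. Without control 1, cohesin had 3 genes called lower and 1 higher, with a median of -0.11 in place of -0.057. The anaphase-promoting complex and centriole lists had 1 called higher each. Of all genes 3.68% were called lower and 7.66% higher in that fit.

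Of 13 regulators of mitotic transcription, 1 was called lower and 1 higher, beside 2.26% and 4.55% of all genes. Fitted values were below zero for 10 and above it for 3, with a median of -0.11. At an unadjusted limma p under 0.05, 4 were lower and 2 higher, beside 1330 and 2217 of all 14954 genes. Lin54, the CHR-binding subunit of MuvB, stood at 52.46, 47.99, 54.61 and 52.08 CPM in induced libraries, against 60.22, 73.98, 109.1 and 83.39 CPM in controls. All induced libraries were lower and even, while the controls spread widely (log2 fold change -0.62, adjusted p = 0.0319; 0.101 without induced 2). Mybl2, the B-Myb activator that joins MuvB, rose to 253.5 ± 19.5 CPM in induced cells, against 205.5 ± 12.1 CPM in control cells (log2 fold change 0.30, adjusted p = 0.0395; 0.145 without induced 1). Under median-of-ratios or upper quartile scaling Mybl2 was not called higher. Lin54 and Mybl2 were each called in 2 of the 8 leave-outs.

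Markers of progenitors and neurons moved in the same libraries. Of 8 radial glia markers 5 were called lower (Nes, Hes5, Fabp7, Slc1a3 and Prom1), beside 2.26% of all genes. The summed level of the 8 was 1066 to 1396 CPM in induced and 1519 to 1930 CPM in control libraries. Of 8 neuron markers 5 were called higher (Tubb3, Dcx, Map2, Elavl3 and Elavl4), beside 4.55% of all genes. The sums of the 8 were 1349 to 1608 CPM in induced and 826.5 to 1022 CPM in control libraries. Of 6 pluripotency markers 3 were called higher (Nanog, Zfp42 and Esrrb) and 1 lower (Tdgf1, at 605.1 CPM in induced and 814.8 CPM in control cells). Their sums were 1738 to 2041 CPM in induced and 1874 to 2088 CPM in control libraries. Of 6 feeder fibroblast markers 0 were called by limma (2 lower and 2 higher at an unadjusted p under 0.05). The fibroblast sums were 573.7 to 710.7 CPM in induced and 524.2 to 681.6 CPM in control libraries. No marker of these lists was at 0 in any library, and the lowest value was that of Hes5 in induced 1, at 0.200 CPM. Across the induced libraries 1 to 4 the mean log2 deviation from the control mean was -0.19, -0.20, -0.094 and -0.11 for the 45 mitotic genes. For the radial glia markers it was -1.75, -1.64, -0.57 and -0.50, so induced 1 and 2 were the lowest in both. For the neuron markers it was 0.70, 0.62, 0.48 and 0.73. Of the radial glia markers Hes5 and Fabp7 fell most, at log2 fold changes of -3.66 and -2.53, and Sox2 was at -0.008. The median deviation of the radial glia markers, taken from controls 2 to 4, was smaller, at -0.81, -0.87, -0.45 and -0.31. Which of these cell types the mitotic reads came from cannot be told in bulk libraries. The part of cell composition and of depth in the mitotic shift was not tested.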

How the data were processed

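Stranded mRNA libraries of 4 Bcl6-induced and 4 control samples of differentiating mouse embryonic stem cells were analysed. Per the submitters' processing notes, STAR 2.5.3a, HTSeq 0.9.1, edgeR 3.20.1 and the mm10 genome were used, with no order or role given, and whether reads were counted by strand is not given in the sources used here. The deposited values are whole-number scores: reads the authors scaled to between 19.93 M and 19.96 M per library and rounded up, judged from the values. A read was worth 1.328 to 2.118 scaled units, and at least 99.84% of values up to 1000 lay on these steps, which gave the depths. The deposited table had decimal commas split into separate cells, so values were taken by cell number, with the Bcl6 line displaced.

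CPM are scaled reads over the library total. The main test was limma 3.58.1 (R 4.3.3) with a mean-variance trend on log2(value + 1) and no covariate. Benjamini-Hochberg adjustment covered 14954 genes, at a threshold of 0.05. The fit was tried on simulated counts with larger changes than most mitotic genes had here. Those counts had no transcript length trend, so the trial does not cover a library like control 1. The lowest gene mean was 15.1 scaled reads, and no further filter was applied. A fold change on this scale understates change in low genes, and exact counting error is not carried by the scaled values. Transcript length was the longest transcript of a gene in GENCODE M21 (99.8% of genes). Promoters came from RefSeq windows. The members and lists were chosen with earlier results of these data known. Every library's values are given for members called with all libraries or without control 1, for the 4 long transcripts and for the member with the largest change of each role. Related genes are named where called with all libraries. Alternatives were other scalings, pseudocounts of 0.1 and 10, a minimum mean of 100 scaled reads, array weights, a length-trend removal, replicate blocks and leaving out each library.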

Additional observations from a re-analysis of the deposited data

Results flagged for a closer look

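In 90 groups of 4 libraries (45 genes, induced and control), a single library stood apart from the others in 5 by Dixon's test, and chance gives about 1 in 20. Plk1 had 125.5 CPM in induced 4, against 121.5 to 121.9 CPM in the other induced libraries. Ccna2 had 217.4 CPM in induced 2, against 227.0 to 228.1 CPM in the others. For Cdc20, control 1 had 271.5 CPM, against 220.7 to 223.9 CPM in the other controls. For Cdca8, control 1 had 187.9 CPM, against 141.6 to 146.1 CPM in the other controls. Cdc25b had 82.12 CPM in control 3, against 89.45 to 90.33 CPM in the other controls.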

How the results depend on the processing

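Nusap1 was called under all 18 alternatives run and Cdc25b under 15, Kif4 under 11 and Aurkb under 8. The 2 planned count tests were not run, since the deposited values are scaled and were not accepted as counts. Median-of-ratios scaling called 7 mitotic genes lower, with 11 related genes lower and 0 higher, and split all calls 536 higher to 424 lower, against 681 to 338 as reported. Upper quartile scaling called 9, with 13 related genes lower and 0 higher, a median of -0.199 and a split of 501 to 474. A pseudocount of 0.1 lost Aurkb. A minimum mean of 100 scaled reads gave 9 related genes lower, beside 304 of the 11869 genes kept. Array weights gave 2507 genes called, 15 mitotic genes, and 23 related genes lower with 5 higher. Removing the length trend gave 1762 genes called (895 higher, 867 lower), 16 mitotic genes, 21 related genes lower and 2 higher, a median of -0.195 and a Mki67 value of -0.369.

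Control and induced libraries carry the same differentiation numbers, and whether a number marks a shared differentiation is not stated. Same-numbered libraries deviated together with correlations of 0.053, 0.022, -0.041 and 0.263, and not every library correlated best with its own number. The numbers were not taken as pairs in the main test, though low correlations do not decide the question. With the replicate block 2 mitotic genes, Cdc25b and Nusap1, and 1 related gene were called lower, beside 296 of all 14954 genes. The calls of Aurkb and Kif4 were lost. With the block and both libraries of number 1 left out, 5 mitotic and 8 related genes were lower, beside 517 of all 14954 genes. Mki67 was then -0.370 (limma adjusted p = 0.0043). With the block and the length trend removed, 1906 genes, 13 mitotic genes, 21 related genes lower and 2 higher were called, with a median of -0.195 and Mki67 at -0.369.

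Leaving out each library in turn gave 308 to 1697 genes called, 1 to 9 mitotic genes lower, 0 to 16 related genes lower and 0 to 5 higher, and a median of -0.155 to -0.124. The range was -0.208 to 0.107 for Aspm, -0.136 to 0.054 for Cenpe, -0.212 to 0.068 for Cenpf and -0.402 to -0.092 for Mki67. The sign turned without control 3, control 4 or induced 2 for Aspm (0.107, 0.078 and 0.063) and Cenpf (0.068, 0.062 and 0.051), and without these or induced 1 for Cenpe (0.054, 0.047, 0.027 and 0.020). The cause was not tested. For the other named genes, 162 values kept their side of the threshold, 34 passed it and 20 lost it, all in the same direction.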
